A study of Homo sapiens with 11 samples.

Results

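This account describes 445 of the 3560 genomic sites that bound estrogen receptor (ER) after estradiol in Ishikawa cells, an established human endometrial cancer cell line. They were selected on peak calls: they are the estradiol ER peaks that overlapped, by at least 1 bp, a glucocorticoid receptor (GR) peak of cells given dexamethasone and estradiol together, and no GR peak of cells given dexamethasone alone. They made up 12.5% of the estradiol ER sites. Of the other estradiol ER sites, 258 overlapped GR in both treatments, 99 overlapped GR with dexamethasone only, and 2758 overlapped no GR peak. The 445 sites are called combination-GR sites below, the 258 are called constant-GR sites, and the 2758 are called sites without GR. Constant refers to the GR call only, as GR strength was not compared between the treatments.

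Chromatin immunoprecipitation followed by sequencing was done for ER and GR after 1 h and for acetylated lysine 27 of histone H3 (H3K27ac) after 8 h. The 8 h comes from the samples' treatment labels and the file headers, while the treatment protocol shared by all samples mentions only 1 h. The cells were kept beforehand in medium with hormone-stripped serum. ER was mapped with 10 nM estradiol and with the combination of 100 nM dexamethasone and 10 nM estradiol, and GR with 100 nM dexamethasone and with the same combination. H3K27ac was mapped with vehicle (DMSO), estradiol, dexamethasone and the combination at these doses. All 8 lists came from this 1 cell line, with 1 library a group, so no replicate spread exists and no p-value between treatments can be given. The 95% intervals below are over sites and cover counting error only. Usable tags ranged from 5206574 to 8508828 in the ER and GR libraries and from 9034395 to 18508574 in the H3K27ac libraries.

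ER and GR are nuclear receptors that bind DNA once their steroid hormone has entered the cell. Estradiol activates ER, which recognises the estrogen response element, and dexamethasone is a synthetic glucocorticoid that activates GR, which recognises the glucocorticoid response element. Both receptors act largely at enhancers far from gene starts, and they recruit overlapping sets of coactivators, among them acetyltransferases. H3K27ac is the mark those enzymes leave on nucleosomes beside active enhancers and promoters. In the endometrium estrogen drives growth of the epithelium, and glucocorticoids are known to oppose several of its effects.

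Combination-GR sites were mostly strong ER sites. ER peak strength is given by the authors' fold enrichment, the pileup of fragments at the summit over the local control, and by the authors' −log10 q, which ranks peaks within a list. These values come from a list that chose the sites, so they are a description and carry no test. The ER fold enrichment with estradiol ranged from 2.98 to 63.1 at the 445 sites, with a median of 22.0. Its median was 14.5 at constant-GR sites and 13.6 at sites without GR. Of the 445, 296 (66.5%) lay in the strongest 25% of the estradiol ER list, 83 in the next 25%, 48 in the third and 18 in the weakest. The authors kept 1 tag per position, which limits the estradiol ER pileup to 73.6, and 53 of the 445 sites (11.9%) reached 95% of that or more, against 5 of the sites without GR. The same ER peaks were also wide, with a median width of 243 bp against 146 bp at sites without GR.

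The GR peaks at these sites were mostly moderate ones. The 445 sites carried 447 GR peaks, or 27.5% of the 1628 GR peaks of the combination, and 2 sites carried more than 1. GR fold enrichment ranged from 4.35 to 93.2 with a median of 12.6. Only 79 sites (17.8%) had a GR peak in the strongest 25% of the combination GR list, and 128 (28.8%) had one in the weakest 25%. ER strength with estradiol and GR strength with the combination went together only loosely across the sites (Spearman rho 0.378 over 445 sites, which share the same 2 libraries). With the combination ER list in place of the estradiol list, rho was 0.495 over 432 sites.

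The 5 strongest ER sites of the whole estradiol list by −log10 q all belonged to this group. They were chr12:4120816-4121183, chr6:131228193-131228448, chrX:67682193-67682398, chr16:50994523-50994824 and chr15:39960696-39960988, with ER fold enrichments of 63.1, 57.8, 55.9, 56.3 and 54.9. Their GR fold enrichments with the combination were unequal, at 27.8, 39.7, 14.6, 19.2 and 62.5. The next among combination-GR sites were chr22:28195642-28196101 (ER 54.7, GR 16.8), chr7:101647492-101647787 (ER 52.4, GR 27.1) and chr4:182609629-182609914 (ER 51.2, GR 39.3). The sites chr9:132323295-132323673 (ER 52.3, GR 53.2) and chr3:134046464-134046716 (ER 51.4, GR 11.5) followed. A site without GR, with an ER −log10 q of 128, ranked above the last 4 of these. The site on chromosome 3 had a GR peak only in the third 25% of the GR list.

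Ordering by GR gave other sites. By −log10 q, the strongest GR peak stood at chr3:150562350-150562610, with a GR fold enrichment of 93.2 and an ER fold enrichment of 35.5, only the 46th of the 445 by ER. It was followed by chr6:6704003-6704287 (GR 74.9, ER 24.7), chr2:11638702-11639005 (GR 73.1, ER 37.1) and chr9:132321014-132321400 (GR 59.2, ER 36.9). The opposite extreme was chr2:100253168-100253464, picked out after its values were seen, with the lowest ER fold enrichment of all (2.98) and a GR fold enrichment of 39.8. Its ER pileup was nonetheless at the ceiling of 73.6, so the low ratio was taken against a high local control.

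**Figure D1:**
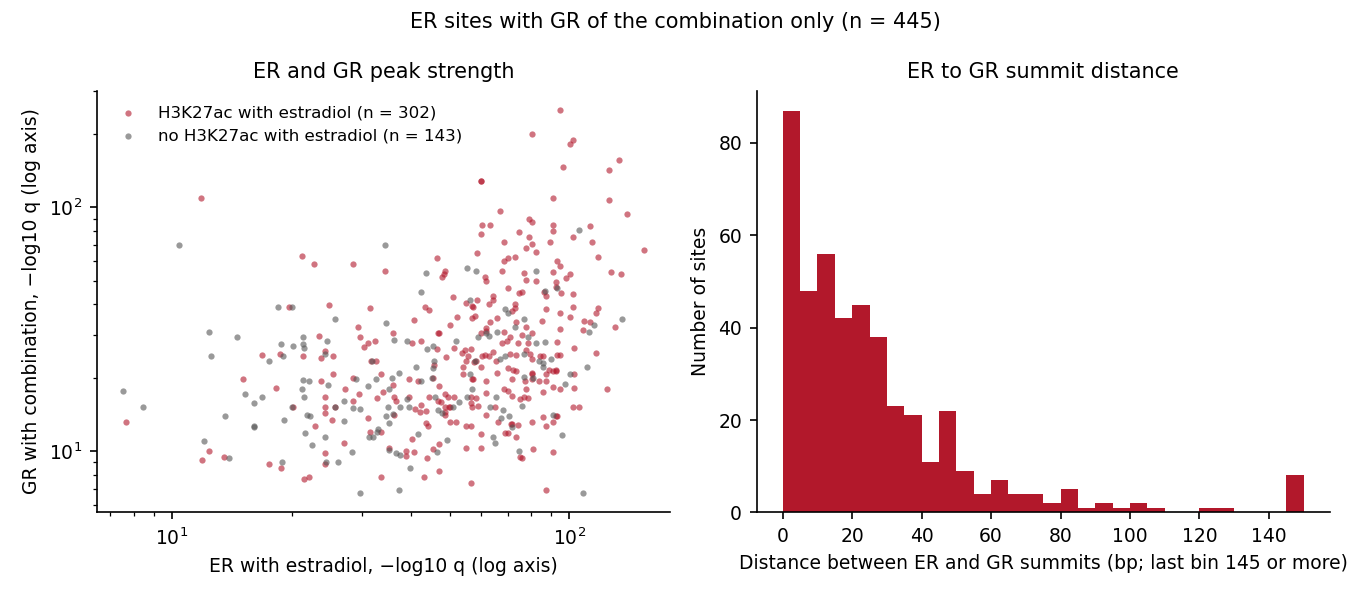
Left, the authors' −log10 q of the ER peak with estradiol (x, log axis) and of the GR peak with the combination (y, log axis) at each of the 445 combination-GR sites, red where the site had H3K27ac with estradiol. Right, the number of these sites by distance in bp between the ER and GR summits. The points scatter widely around a loose upward trend, and the distances pile up near 0 with a median of 19 bp.

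GR sat close to the centre of the ER peak. The median distance between the GR summit and the estradiol ER summit was 19 bp, with quartiles of 8 and 33 bp. The GR summit fell inside the ER peak at 433 of 445 sites (97.3%), and the GR peak was the narrower at 389 (87.4%). At constant-GR sites the median was 28.5 bp. The overlap of these same peaks chose the sites, and peak widths differed between the classes (the GR peak was the narrower at 52.7% of constant-GR sites), so the distances are a description only.

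ER itself was found again at nearly all of these sites when dexamethasone was added. The combination ER list, which the selection did not use, held 432 of the 445 (97.1%, 95.1 to 98.4), against 61.8% of all estradiol ER sites. It held 88.4% (83.8 to 92.0) of constant-GR sites and 53.9% (52.0 to 55.8) of sites without GR. The combination ER list was the shorter, with 2382 peaks against 3560, from 7625049 usable tags against 8508828. The part of list length in these shares was not tested. The gap changed with ER strength. In the strongest 25% of the estradiol list it held all 296 combination-GR sites and 98.0% of sites without GR, a difference of 1.98 points (0.411 to 3.60). In the next 25% the shares were 97.6% and 77.3%, a difference of 20.3 points (13.6 to 23.9), and in the third they were 85.4% and 40.4%, a difference of 45.0 points (31.9 to 53.1). Even the 18 combination-GR sites in the weakest 25% were found at 77.8%, against 16.6%, a difference of 61.1 points (38.0 to 74.6). Within each 25%, the difference from constant-GR sites had an interval that included 0.

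Of the 13 sites missing from the combination ER list, 2 had ER peaks in the second 25% by estradiol strength, 7 in the third and 4 in the weakest. They included chr16:14458480-14458703 (ER fold enrichment 18.4), chr6:11650601-11650788 (8.87) and chr16:50913834-50913976 (14.0). H3K27ac with estradiol was called at 5 of the 13, with the combination at 4, with vehicle at 1 and with dexamethasone at 0, which allows a share of up to 24.7% by the exact interval.

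H3K27ac separated the treatments into 2 levels at combination-GR sites. It overlapped 302 of the 445 sites with estradiol (67.9%, 63.3 to 72.2) and 298 with the combination (67.0%, 62.4 to 71.3). The vehicle list overlapped 176 (39.6%, 35.0 to 44.3) and the dexamethasone list 146 (32.8%, 28.5 to 37.4). Over all estradiol ER sites the shares were 50.6% with estradiol, 46.5% with the combination, 36.8% with vehicle and 27.5% with dexamethasone. The vehicle share at combination-GR sites was thus close to that background, while the shares with estradiol and with the combination stood above it.

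Set against ER sites without GR, combination-GR sites had H3K27ac more often in every list, by amounts that differed between lists. For estradiol the difference was 23.4 points (18.5 to 27.9), and for the combination 27.9 points (23.0 to 32.5). For dexamethasone it was 11.4 points (6.90 to 16.1), and for vehicle 7.75 points (2.98 to 12.7). Set against constant-GR sites, the order turned. Combination-GR sites had less H3K27ac with vehicle (39.6% against 67.8%, a difference of -28.3 points, -35.3 to -20.8) and with dexamethasone (32.8% against 65.5%, -32.7 points, -39.6 to -25.2). With estradiol the difference was -5.78 points (-12.5 to 1.28), an interval that includes 0, and with the combination it was -8.62 points (-15.2 to -1.62). Of constant-GR sites, 32.2% lay in the strongest 25% of the estradiol ER list, against 66.5% of combination-GR sites. Within that 25% the estradiol difference was -7.84 points (-15.7 to 2.29), and within the second -12.3 (-26.8 to 3.23). Within the third it was -23.9 (-41.6 to -3.59), and within the weakest -36.7 (-56.5 to -10.6). With the combination the differences, strongest first, were -15, -12.4, -24.2 and -29.4 points, and only the second had an interval that included 0. The shares of constant-GR sites ranged from 65.5% to 75.6% over the 4 treatments, and those of combination-GR sites from 32.8% to 67.9%.

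**Figure D2:**
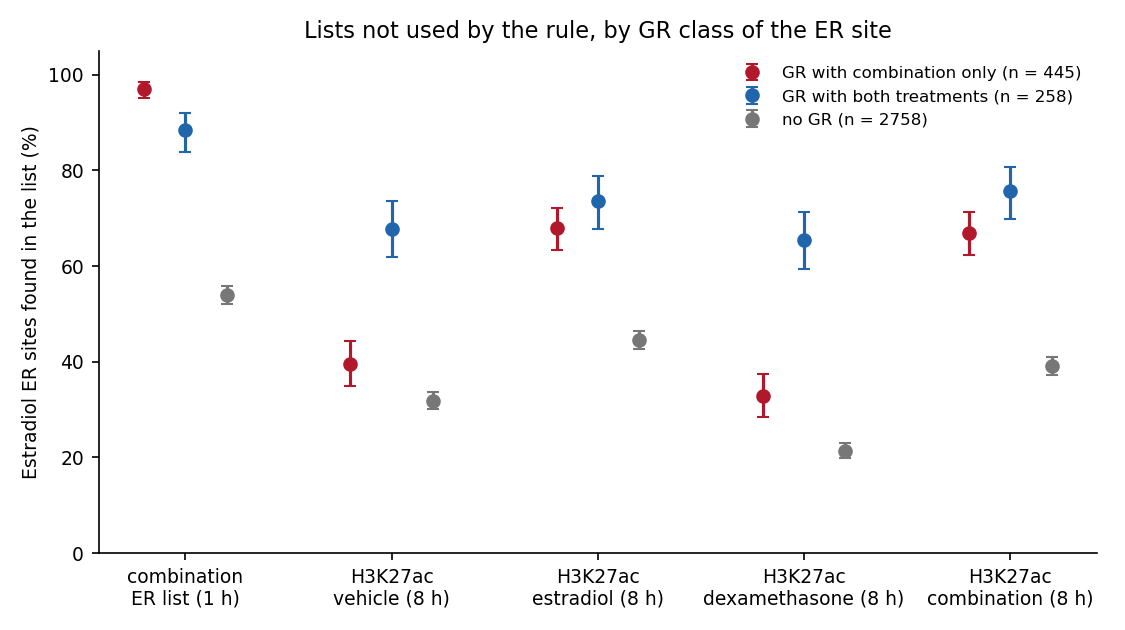
Percent of estradiol ER sites found in the combination ER list and in each of the 4 H3K27ac lists, by GR class, with exact 95% intervals over sites. At combination-GR sites (red) H3K27ac was called at 67.9% with estradiol and 67.0% with the combination but at 39.6% with vehicle and 32.8% with dexamethasone, while constant-GR sites (blue) stayed between 65.5% and 75.6%.

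The dexamethasone H3K27ac library stood apart, with 33% duplicate tags against 18% to 22% in the other H3K27ac libraries, and its list was the shortest at 15192 peaks. The vehicle library was the deepest. With all 4 lists reduced to 15192 peaks, the shares at combination-GR sites were 36.9% for vehicle, 32.8% for dexamethasone, 63.8% for estradiol and 65.4% for the combination. When H3K27ac within 1 kb was counted, the vehicle and dexamethasone shares drew together, at 47.2% and 45.8%, and those of estradiol and the combination were 78.4% and 77.8%. Over all estradiol ER sites the 1 kb shares were 45.7% with vehicle, 40.5% with dexamethasone, 62.8% with estradiol and 59.8% with the combination. The vehicle share was thus close to that background. The part of library quality in the low dexamethasone share was not tested.

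Most sites followed 1 of 3 patterns over the 4 lists. H3K27ac was called in all lists at 135 sites (30.3%, against 25.4% of all estradiol ER sites), in none at 121 (27.2%, against 45.2%), and in the estradiol and combination lists only at 97 (21.8%, against 8.03%). The last pattern separated combination-GR sites from both other classes. It was seen at 6.38% of sites without GR, a difference of 15.4 points (11.7 to 19.6), and at 4.26% of constant-GR sites, a difference of 17.5 points (12.7 to 22.0). Among the strongest 25% of ER sites it was seen at 81 of 296 combination-GR sites (27.4%) and 72 of 506 sites without GR (14.2%), a difference of 13.1 points (7.33 to 19.2). Without the dexamethasone list, 104 sites had H3K27ac with estradiol and the combination and not with vehicle (23.4%, against 8.79%).

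The rarer patterns stood closer to their background. All lists but dexamethasone held 38 sites (8.54%, against 8.82%), the estradiol list alone held 23 (5.17%, against 5.87%), and the combination list alone held 18 (4.04%, against 2.53%). The combination-only share was 1.72 points above that of sites without GR (0.123 to 4.04), and its difference from constant-GR sites, 1.33 points (-1.81 to 3.98), had an interval that included 0. Against constant-GR sites, estradiol alone was 4.01 points more frequent (1.23 to 6.59) and all lists but dexamethasone 4.28 points (0.354 to 7.78), while both differences from sites without GR had intervals that included 0. The remaining 6 patterns seen held 13 sites between them, 7 of which had H3K27ac in every hormone list and not with vehicle (1.57%, against 0.758%).

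**Figure D3:**
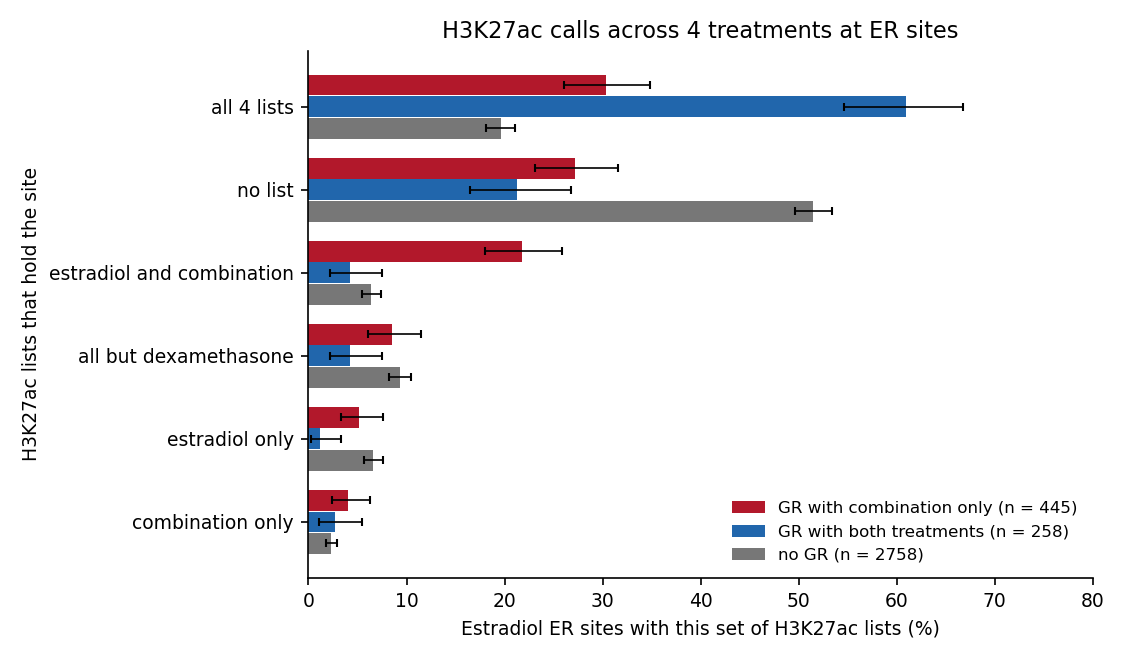
Percent of estradiol ER sites with each of the 6 most frequent sets of H3K27ac lists, by GR class, with exact 95% intervals over sites. Acetylation with estradiol and the combination only was called at 21.8% of combination-GR sites (red), 4.26% of constant-GR sites (blue) and 6.38% of sites without GR (grey).

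Named sites show what each pattern looks like. At chr12:4120816-4121183, the strongest ER site, H3K27ac peaks were called with estradiol (fold enrichment 13.6) and the combination (9.05) and not with vehicle or dexamethasone. The same held at chr16:50994523-50994824 (16.5 and 16.8), chr7:101647492-101647787 (17.0 and 11.0) and chr2:67392844-67393097 (14.1 and 27.8). At chr6:131228193-131228448 all 4 lists had a peak, with fold enrichments of 12.6 for vehicle, 21.0 for dexamethasone, 38.1 for estradiol and 32.5 for the combination. These values come from separately scaled libraries and are set side by side without a comparison.

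Strong receptor binding also occurred where no H3K27ac was called. The site chrX:67682193-67682398, the third by ER strength, had ER fold enrichments of 55.9 with estradiol and 58.1 with the combination and no H3K27ac peak in any list. Others of this kind were chr17:39572264-39572519 (ER 48.9, GR 19.0), chr7:25064903-25065110 (ER 48.1, GR 16.2) and chr12:116933145-116933370 (ER 47.6, GR 13.1). In all, 54 of the 296 combination-GR sites in the strongest 25% of the ER list were in no H3K27ac list (18.2%), against 206 of 506 sites without GR (40.7%), a difference of -22.5 points (-28.4 to -16.1).

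The 18 sites acetylated with the combination alone included chr11:30543280-30543522 (H3K27ac fold enrichment 8.77), chr2:11672548-11672824 (9.47), chr4:77491268-77491544 (6.84) and chr3:60875708-60875871 (14.3). In the reverse direction, chr22:28195642-28196101, the sixth strongest ER site, had H3K27ac with estradiol only (10.7).

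Each treatment list can be set against vehicle in turn, keeping in mind that the 3 comparisons share the vehicle list. With estradiol, 127 combination-GR sites had H3K27ac that the vehicle list lacked (28.5%, against 14.7% of all estradiol ER sites) and 1 had it only in the vehicle list of this pair (against 0.871%). With the combination the counts were 124 (27.9%, against 11.8%) and 2 (against 2.11%). With dexamethasone they were 10 (2.25%, against 1.60%) and 40 (8.99%, against 10.9%). New calls at combination-GR sites thus stood above the share of all estradiol ER sites with estradiol, with or without dexamethasone. With dexamethasone alone they were close to that share. The dexamethasone list was also the shortest, with 33% duplicate tags, and the vehicle library was the deepest. Of the 269 combination-GR sites outside the vehicle list, 47.2% (41.1 to 53.4) were in the estradiol list. The share was 19.9% at sites without GR (a difference of 27.3 points, 21.1 to 33.5). It was 22.9% at constant-GR sites (24.3 points, 12.6 to 34.1). The classes differed in ER strength, with 66.5%, 18.3% and 32.2% of their sites, in this order, in the strongest 25% of ER sites. Within that 25%, 126 of 296 combination-GR sites were in the vehicle list and 104 had estradiol calls that vehicle lacked. At 83 constant-GR sites these counts were 62 and 10, and at 506 sites without GR 162 and 129. The part of ER strength in the pooled differences was not tested.

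Adding dexamethasone to estradiol left most of the calls at these sites in place. Of the 302 sites with H3K27ac in the estradiol list, 277 (91.7%, 88.0 to 94.6) were in the combination list. The share was 84.9% over all estradiol ER sites with that call. It was 80.5% (78.2 to 82.7) at sites without GR, a difference of 11.2 points (6.97 to 14.7). In the strongest 25% of ER sites the shares were 92.2% and 77.9%, a difference of 14.2 points (8.16 to 20.1). In the second and the third 25% the differences were 10.7 points (-2.03 to 18.0) and 11.6 points (-7.56 to 19.8), with intervals that included 0. Constant-GR sites kept more, at 96.8%, so that combination-GR sites lay 5.12 points below them (difference -5.12, -9.15 to -0.708). In the strongest 25% of ER sites these shares were 92.2% and 100.0% (-7.83 points, -12.0 to -1.97). Of the 127 combination-GR sites with estradiol calls that vehicle lacked, 104 (81.9%, 74.1 to 88.2) were in the combination list. At such sites without GR the share was 50.9%, a difference of 31 points (21.8 to 38.6). At 19 such constant-GR sites it was 84.2% (-2.32 points, -15.1 to 20.2), and the interval included 0. Only 25 combination-GR sites had H3K27ac with estradiol and not the combination (5.62%, against 7.67% of all estradiol ER sites), and 21 the reverse (4.72%, against 3.48%). At sites without GR the counts were unbalanced, with 239 and 90. The estradiol H3K27ac list was the longer, with 23888 peaks against 20873 in the combination list. The part of list length in these counts and in the shares kept was not tested. H3K27ac peak strength moved with the share kept. Of the 302 combination-GR sites in the estradiol H3K27ac list, 73.2% had a peak in the strongest 25% of that list. Of such sites without GR, 63.3% did. Within that strongest 25% the combination list held 220 of 221 combination-GR sites and 93.2% of sites without GR, a difference of 6.37 points (3.77 to 8.40). In each weaker 25% of H3K27ac peaks the difference had an interval that included 0.

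The H3K27ac peaks at combination-GR sites were wider than those at sites without GR and narrower than those at constant-GR sites. With estradiol the 302 sites lay in 281 distinct H3K27ac peaks. Widths were counted per site, so a peak that held several sites entered several times. The median was 3522 bp, against 2269 bp at sites without GR and 3899 bp at constant-GR sites. Over the whole list, with each peak counted once, it was 650.0 bp. With vehicle the 176 sites had a median H3K27ac width of 2192 bp, against 1746 bp at sites without GR and 3082 bp at constant-GR sites. With dexamethasone the medians were 1689, 1435 and 3226 bp. Wide peaks are met more easily by any site. The ER summit stood off from the H3K27ac summit, with a median offset of 461 bp with estradiol and 482 bp with the combination.

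Within the group itself, the H3K27ac shares with estradiol and with the combination differed by ER strength. With estradiol, H3K27ac was called at 77.7% of the 296 sites in the strongest 25% of the ER list and at 48.3% of the others, a difference of 29.4 points (19.9 to 38.4). With the combination the shares were 75.3% and 50.3% (25 points, 15.5 to 34.2). With vehicle they were 42.6% and 33.6% (9.01 points, -0.625 to 18.1) and with dexamethasone 34.1% and 30.2% (3.92 points, -5.43 to 12.7), both intervals including 0.

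The excess over sites without GR was also read within bins of ER strength. The bins narrow the gap in strength without closing it: in the strongest 25% the median ER −log10 q was 70.6 at combination-GR sites and 56.7 at sites without GR. In the strongest 25% of ER sites it was 20.4 points for estradiol (13.8 to 26.6), 28.9 for the combination (22.1 to 35.2), 15.3 for dexamethasone (9.03 to 21.8) and 10.6 for vehicle (3.64 to 17.5). In the second 25% it was 16.5 points with the combination (5.28 to 27.4) and 11.5 with dexamethasone (1.68 to 22.5), while the intervals for estradiol (10.6 points, -0.667 to 21.5) and vehicle (8.86 points, -1.47 to 20.1) included 0. In the third 25% it was 12.5 points for dexamethasone (0.488 to 26.9), and the intervals for vehicle (1.47 points, -10.7 to 16), estradiol (5.65 points, -8.06 to 19.9) and the combination (12.8 points, -1.07 to 26.9) included 0. In the weakest 25%, where the group has 18 sites, the differences turned negative: -22.4 points for vehicle, -17.5 for dexamethasone, -8.93 for estradiol and -0.643 for the combination, of which only the vehicle interval (-31.1 to -0.508) left out 0.

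**Figure D4:**
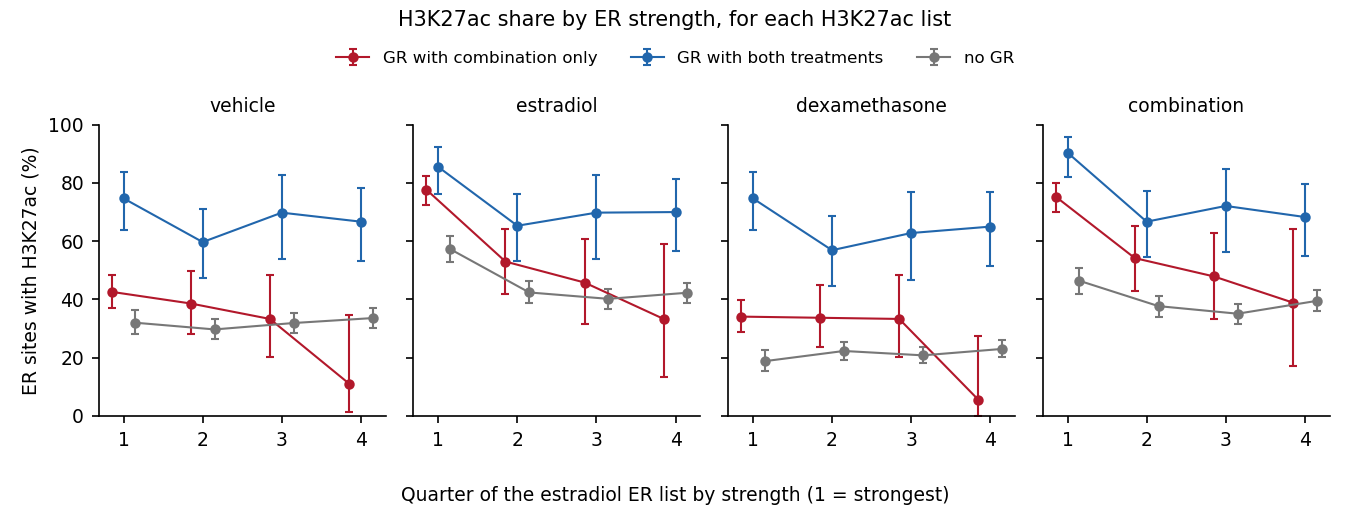
Percent of ER sites with H3K27ac in each of the 4 lists (panels), by strength in the estradiol ER list, in 4 bins of 25% from strongest (1) to weakest (4), and by GR class, with exact 95% intervals over sites. Combination-GR sites (red) fall from 77.7% to 33.3% with estradiol, and in each of the 4 lists their share lies below that of constant-GR sites (blue) in every bin.

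The strongest GR peaks more often had H3K27ac with estradiol and with the combination. The 111 sites with the strongest GR peaks had H3K27ac at 83.8% with estradiol and 82.9% with the combination, against 62.6% and 61.7% at the other combination-GR sites, differences of 21.2 points (11.8 to 29.0) and 21.2 points (11.7 to 29.1). With vehicle the shares were 40.5% and 39.2% (1.32 points, -8.86 to 11.9) and with dexamethasone 36.0% and 31.7% (4.30 points, -5.50 to 14.7). ER strength moved with GR strength here. Within the strongest 25% of ER sites the differences were 13.5 points with estradiol (3.59 to 22.0) and 14.0 with the combination (3.71 to 22.8). At the other combination-GR sites they were 14.5 points with estradiol (-12.8 to 36.8), 20.7 with the combination (-7.42 to 40.6) and 22.2 with vehicle (-3.81 to 46.3), and these intervals included 0.

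Combination-GR sites often had ER neighbours. Another estradiol ER site lay within 10 kb of 230 of the 445 (51.7%, 46.9 to 56.4), against 33.5% of sites without GR, a difference of 18.2 points (13.3 to 23.1), and 50.8% of constant-GR sites (0.910 points, -6.71 to 8.53). In the strongest 25% of ER sites the shares were 56.8% and 34.4% (22.4 points, 15.3 to 29.2). In the second, the third and the weakest 25% the differences were 7.91 points (-2.65 to 19.2), 7.85 points (-5.15 to 22.3) and 15 points (-6.23 to 36.2), with intervals that included 0. The sites were spread over all 23 chromosomes seen in the lists. Chromosome 2 held 50 of them (11.2%), against 7.51% of sites without GR (3.73 points, 0.921 to 7.13), and the other 22 differences had intervals that included 0. These 23 intervals are not adjusted for their number, and 6 of the 50 sites form 1 group of neighbours described below.

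When members within 50 kb of each other were joined, 13 groups of 3 or more were formed, and they differed in how H3K27ac behaved. These groups were picked out after their values were seen. No hg19 annotation was used here, so the sites are given by position and no gene is named. The largest group had 6 sites between chr2:11638702 and 11679937. None of the 6 had H3K27ac with vehicle or dexamethasone. With estradiol it was called at the outer sites, chr2:11638702-11639005 (fold enrichment 20.7) and chr2:11679707-11679937 (20). With the combination it was called at these (23.7 and 34.6) and also at chr2:11646302-11646463 (10.5) and chr2:11672548-11672824 (9.47). The outer sites also had the strongest GR, with fold enrichments of 73.1 and 52.9, against 10.2 to 21.5 at the 4 inner ones. ER of the combination was called at 5 of the 6, all but chr2:11646302-11646463.

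Other groups were acetylated in every treatment. All 5 sites between chr18:20424202 and 20452085 were in all 4 H3K27ac lists, and so were 3 sites between chr17:55967563 and 55991915 and 3 between chr3:134046464 and 134094190. Further groups were in the lists of the estradiol-containing treatments only. The 3 sites between chr11:69950612 and 69967136 were all in the estradiol and combination lists and outside the vehicle and dexamethasone lists, as were the 3 between chr2:100253168 and 100279490. Neighbouring sites can share 1 wide H3K27ac peak, so calls within a group are not separate observations. The sites chr11:69950612-69950919 and chr11:69952289-69952777 had the same H3K27ac fold enrichments (38.4 with estradiol and 29 with the combination). At chr20:36773482 to 36812787 the estradiol H3K27ac list held none of 3 sites, and the combination and vehicle lists held 1 each.

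**Figure D5:**
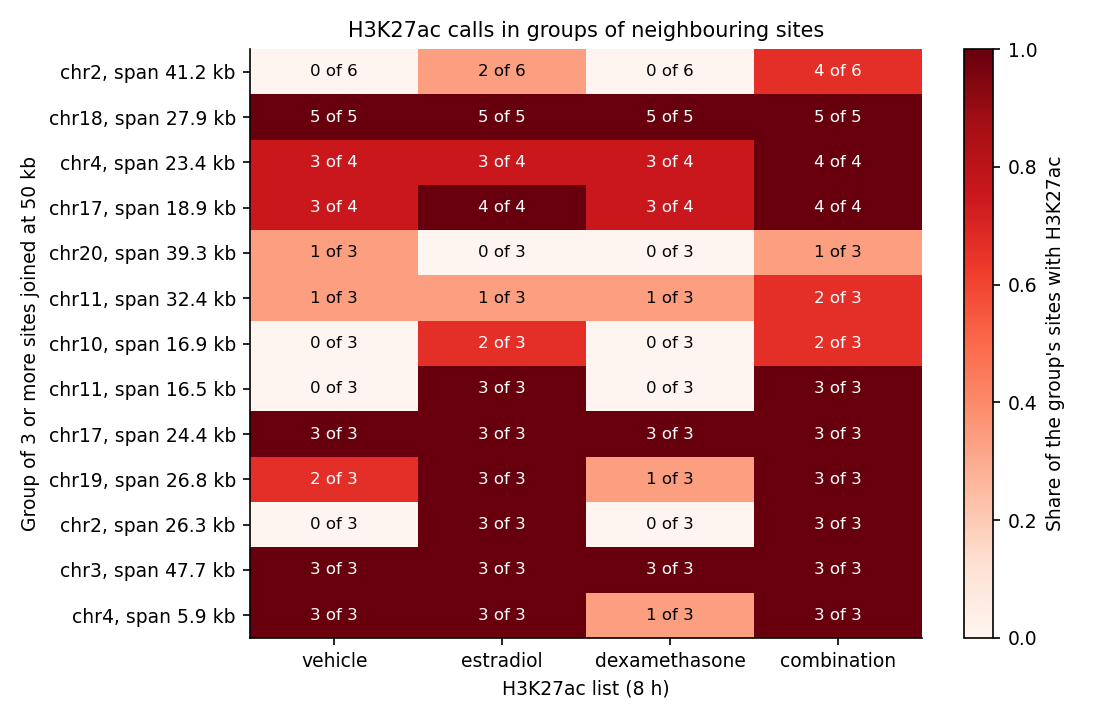
Number of combination-GR sites with H3K27ac in each of the 4 lists (columns) for the 13 groups of 3 or more such sites joined at 50 kb (rows, labelled by chromosome and span), shaded by share. The chromosome 2 group of 6 sites has none with vehicle or dexamethasone, 2 with estradiol and 4 with the combination, and the chromosome 18 group has all 5 in every list.

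Single sites with strong GR fell into the same kinds. The site with the strongest GR, chr3:150562350-150562610, had H3K27ac with estradiol (25.3) and the combination (31.6) only. The same was seen at 2 sites picked out after their values were seen, chr2:238467676-238468074 (50.8 and 32.2, ER 35.9, GR 49.8) and chr2:233239901-233240133 (50.9 and 39.1, ER 20.9, GR 19.4). The second by GR, chr6:6704003-6704287, was acetylated in every list, with fold enrichments of 18.1 for vehicle, 11.7 for dexamethasone, 49.9 for estradiol and 35.8 for the combination. At chr15:39960696-39960988 H3K27ac was called with estradiol (42.3), dexamethasone (8.46) and the combination (33.5) and not with vehicle. Of 4 sites between chr4:77468117 and 77491544, 3 were in all 4 lists and chr4:77491268-77491544 was in the combination list only.

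The selection has 2 edges. At the edge of the combination GR call, the weakest GR peaks were those at chr21:16746487-16746699 and chr6:141861387-141861686, each with a GR −log10 q of 6.71 and a fold enrichment of 6.81, although the second had an ER fold enrichment of 46.3. At the edge of the dexamethasone call, the smallest gap to a dexamethasone GR peak was 18 bp, and the gap was 62 bp at chr6:96898542-96898679. A dexamethasone GR peak lay within 1 kb of 15 of the 445 sites (3.37%, against 2.94% of sites without GR) and within 10 kb of 68 (15.3%, against 9.25%). The median gap was 167267 bp, against 283688 bp at sites without GR. Just outside stood constant-GR sites with a slight overlap, such as chr2:241191007-241191238 (9 bp, dexamethasone GR fold enrichment 17.4), or a weak dexamethasone peak, such as chr4:74542600-74543080 (dexamethasone GR fold enrichment 5.67, −log10 q 7.78).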

How the data were processed

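The submitters' processing notes name Bowtie 1.1.2, MACS2 2.1.0.20140616 and the hg19 build. Each list, per the file headers, sets 1 ChIP library against a control at a p cutoff of 1e-10, keeps 1 tag per position and scales the larger library to the smaller. The deposited pileup is a signal, the deposited strength is −log10 of a p-value and q-value, and the deposited fold enrichment is a ratio to local background. These values describe or rank peaks within a list. The headers say that q-values were not calculated, yet the q column holds values, which are used here only for rank. The labels of the control name both input and IgG. With 1 tag per position the estradiol ER pileup cannot exceed 73.6, and 53 combination-GR sites had 95% of that or more.

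Positions are 1-based hg19. Overlap means at least 1 bp, tested on 2000 simulated intervals. Shares carry Clopper-Pearson intervals and differences Newcombe intervals (Python 3.11.15, scipy 1.17.1). The sites and tests were chosen with earlier results of these data known. Sites were named by ER strength, by GR strength, by H3K27ac pattern, by absence from the combination ER list and at the selection's edges; those the results turn on are printed. Vehicle ER, vehicle GR, control samples, hg19 sequence and motifs were not analysed here.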

Additional observations from a re-analysis of the deposited data

How the results depend on the processing

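Ranges are limited by depth and by 1 library a group. Reading overlap as summits within 100 bp, requiring no dexamethasone GR within 1 kb, or reducing the GR lists to equal length left 455, 430 and 474 sites and moved no share outside its interval. The combination GR list reduced to its stronger 50% left 196 sites, of which 99.0% were in the combination ER list, 76.0% had H3K27ac with estradiol and 74.5% with the combination. The estradiol ER list reduced to its stronger 50% gave 99.5% for the combination ER list and 72.3% for H3K27ac with estradiol. H3K27ac within 1 kb gave 47.2% (vehicle), 78.4% (estradiol), 45.8% (dexamethasone) and 77.8% (combination). Over all estradiol ER sites these shares were, in the same order, 45.7%, 62.8%, 40.5% and 59.8%. With the lists read out reduced to their stronger 50%, 86.5% were in the combination ER list, and H3K27ac shares were 33.5% with vehicle, 60.9% with estradiol and 62.2% with the combination, as fewer peaks entered.

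The H3K27ac difference from sites without GR, within the second 25% of ER sites, was 10.6 points with estradiol and 16.5 with the combination. Within the third it was 1.47 for vehicle, 12.5 for dexamethasone, 5.65 for estradiol and 12.8 for the combination. Within the weakest it turned to -22.4 for vehicle, -17.5 for dexamethasone, -8.93 for estradiol and -0.643 for the combination, and the cause was not tested. Chosen after seeing the data, counting members within 10 kb once (401 sites) or leaving out ER sites near the pileup ceiling (392 sites) moved none of these shares or differences outside its interval. No paired analysis was possible because each group holds 1 library.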
